A study of Oncorhynchus kisutch with 9 samples.

Results

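The graded spots are 50 cDNA spots, of 8736 on a salmonid microarray, at which liver RNA of ration-fed growth hormone transgenic coho salmon lay between that of non-transgenic fish and that of transgenic fish on full ration. They were chosen by the measured values themselves. A spot is graded when its log2 ratio between the full-ration transgenic pool (T) and the control pool (C), written T/C, was at least 0.8 in size, and when both steps of that ratio, the ration-fed transgenic pool (R) over C, written R/C, and T over R, written T/R, were at least 0.5 in size, all on the same side of 0. All 9 arrays entered this choice, so the sizes given for these 3 ratios describe the members and support nothing. No test of them was made.

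The RNA came from livers of adult coho salmon (Oncorhynchus kisutch), and each of the 3 pools mixed equal amounts from 5 fish. Pool C was from non-transgenic fish, and pools R and T were from growth hormone transgenic fish that were ration-fed or on full ration. The sources used here do not give the amounts fed, the transgene's promoter or the sex of the fish. Each pair of pools was hybridised on 3 two-colour arrays, with 20 ug of total RNA per labelling, and 1 of the 3 arrays carried the dyes the other way round. The arrays of a comparison hold the same pooled RNA, so an SD below is a spread between hybridisations, not between fish. In such bulk RNA, fewer cells of a type and less RNA per cell cannot be told apart.

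Growth hormone is a pituitary hormone that acts on the liver through its receptor, where it raises the production of insulin-like growth factor 1 and alters the handling of sugars, fats and proteins. Fish that carry an added growth hormone gene eat more and grow faster than their wild-type relatives. A ration-fed transgenic group keeps the transgene while food intake is held down. In a loop of C, R and T, the R/C step differs in genotype and the T/R step in ration within transgenic fish. As the amounts fed are not given here, R/C may differ in food intake as well. A graded transcript is one for which both steps had the sign of T/C and the ratios reached the sizes set above.

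The deposited ratios do not say which dye is the numerator, so which pool was the higher is not settled. The opposite sides of a ratio are therefore called direction 1 and direction 2, and each comparison uses them alike. Read as Cy5 over Cy3, a direction 1 spot was highest in T, intermediate in R and lowest in C. Read as Cy3 over Cy5, the order was the reverse. That R lay between the other pools does not depend on this. It does rest on the ratios following the dyes: after turning by the dye labels, arrays of opposite dye order within a comparison correlated at -0.527 to -0.05 over all centred spots, and at 0.525 to 0.728 once a dye trend shared by all arrays had been removed. The trend was fitted on the mean of these same arrays, so this rise is partly built in. No spot among the members carried a gene name here. The 8 named spots stood for 4 genes (tap1, pck2, pparg and col1a2), none of them graded, and none is a defining marker of liver cells, so the tissue label was not checked against markers. Members are identified below by their spot number, which gives the row and column of the print block and then the row and column of the spot within it.

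The rule was met by 0.572% of all spots. Of the 50 members, 41 lay in direction 1 (0.469% of all spots) and 9 in direction 2 (0.103%). This split depended on the processing. With the dye trend removed, 47 spots met the rule, 23 in direction 1 and 24 in direction 2, and with the spread of the arrays equalised 81 did, 25 and 56. The share in direction 1 was thus 82.0%, 48.9% and 30.9% under these settings, and 97.1% on uncentred arrays, where the median of all spots moved up in each comparison. It was 96.9% under a plain mean of the 3 arrays, which is not dye-balanced because 2 of the 3 share a dye order. Leaving out single arrays of the centred data moved the count as well. It was 28 without T/C array 1, 182 without R/C array 3 and 145 without T/R array 3. Each of these is the only array of its dye order in its comparison, so the mean without it was not dye-balanced. Leaving out any other single array gave 47 to 63 spots. Of the 50 members, 32 also met the rule with the dye trend removed. The 15 spots that met it only then all lay in direction 2. On centred values they fell short mostly in R/C, where 11 of the 15 were below 0.5 with a lowest size of 0.39.

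The thresholds passed 5.79% of all spots in T/C, 4.8% in R/C and 8.92% in T/R when each ratio was taken alone. Among the members the T/C difference ran from 1.75-fold to 7.24-fold, with a median of 2.60-fold (log2 size 1.38). The R/C difference ran from 1.42-fold to 5.36-fold with a median of 1.69-fold, and the T/R difference from 1.42-fold to 4.18-fold with a median of 1.63-fold. The medians over all spots were log2 sizes of 0.21, 0.14 and 0.18 in the same order. A difference of at least 2-fold that kept its sign across the 3 arrays of its comparison was counted in each ratio. It was seen at 42 members in T/C, 16 in R/C and 7 in T/R. The same criterion was met by 2.54%, 0.916% and 0.996% of all spots. At 4 members this held in all 3 comparisons. As the rule used the same ratios, nothing is read from these shares.

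**Figure D1:**
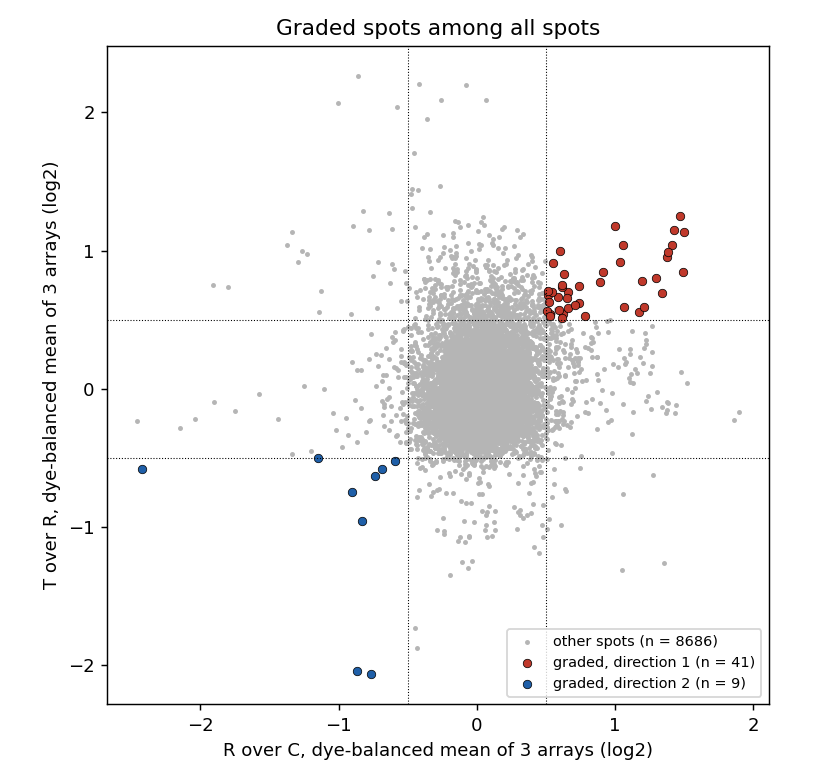
Each point is 1 spot, with the dye-balanced mean log2 ratio of 3 arrays for R/C on the x axis and for T/R on the y axis. Dotted lines mark sizes of 0.5. The 41 direction 1 members (red) fill the upper right corner and the 9 direction 2 members (blue) the lower left, and all other spots are grey.

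Spots on this array come in neighbouring pairs, an odd column and the next even one. All 4 pairs that carried a gene name had a single accession for both spots, and over all 4368 pairs the spots correlated at 0.907 in T/C, 0.803 in R/C and 0.835 in T/R, as a description over spots that share arrays and RNA. The members fell into 34 pairs. Both spots were graded in 16 pairs, 13 in direction 1 and 3 in direction 2, and 1 spot was graded in 18 pairs, 15 and 3. A partner spot was not used to choose its neighbour, although it shares the slide and the RNA with it. The partner was itself graded at 32 of 50 members (64.0%, against 0.572% of all spots). The partner lay on the member's side in all 3 comparisons at 50 of 50, as it did for 50.0% of all spots. By the rule each member ratio was at least 0.5 in size, and the largest gap to a partner was 0.39. No partner could thus change side, whereas most of all spots lay nearer to 0. Nothing is read from this count.

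The 4 direction 1 pairs with the largest T/C ratio had steps of 1.77-fold to 2.74-fold. In pair 1010605, the T/C log2 values on arrays 1 to 3 were 3.39, 1.45 and 2.15, a dye-balanced mean of 2.60 (6.05-fold). Its R/C values were 2.31, 2.59 and 0.44, a mean of 1.45, and its T/R values 2.14, 1.89 and 0.39, a mean of 1.20. All 9 values lay on the same side, and in each comparison the lower values came from arrays with the first-named pool in Cy3. With the dye trend removed the means were 2.51 ± 0.16 (T/C), 1.34 ± 0.15 (R/C) and 1.22 ± 0.01 (T/R), each with the SD over 3 arrays. On centred values the SDs were 0.98, 1.17 and 0.95. The trend was fitted on the mean of the same arrays and takes out much of the dye offset that the centred SDs hold. SDs given with the dye trend removed, here and below, are therefore not independent measures of repeat error.

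Pair 2030909 had nearly the same profile. Its T/C values were 3.54, 1.28 and 1.89, its R/C values 2.36, 2.56 and 0.45, and its T/R values 2.11, 1.88 and 0.18. Its means of 2.56, 1.45 and 1.09 were close to those of pair 1010605 in all 3 comparisons. Removing the dye trend gave 2.54 ± 0.07, 1.36 ± 0.09 and 1.16 ± 0.06.

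Pair 3030303 differed by 4.93-fold between T and C, with array values of 3.43, 1.35 and 1.00. Its R/C values of 2.34, 2.34 and 0.44 gave 2.62-fold, and its T/R values of 1.30, 1.51 and 0.24 gave 1.77-fold. The step from C to R was thus the larger one here. The T/C arrays of this pair spread more than those of the pairs above, with an SD of 0.48 against a mean of 2.21 after removal of the dye trend.

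Pair 8020605 was close to it in size, at 4.94-fold in T/C, 2.60-fold in R/C and 1.96-fold in T/R. Its array values were 3.10, 1.26 and 1.74 for T/C, then 2.07, 2.32 and 0.56 for R/C, and 1.91, 1.73 and 0.13 for T/R. After removal of the dye trend the SD over 3 arrays was at most 0.11 in any of the 3 comparisons.

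Pairs 3030605 and 3010407 differed by 4.16-fold and 4.05-fold between T and C, with about equal steps. In pair 3010407 the steps were 2.04-fold (R/C) and 2.15-fold (T/R). Its R/C values were 2.01, 2.09 and 0.01 and its T/R values 2.20, 1.86 and 0.18, so on centred values the array of opposite dye order was near 0 in both. In pair 3030605 the steps were 1.96-fold and 1.84-fold, and array 3 of R/C lay just on the other side, at -0.08 against 1.84 and 2.22. After removal of the dye trend, all 18 values of the 2 spots on 9 arrays lay on the same side in each of the 16 pairs. The trend was fitted on the mean of these same 9 arrays, which draws values of opposite dye order to a single side. Nothing is read from this count.

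**Figure D2:**
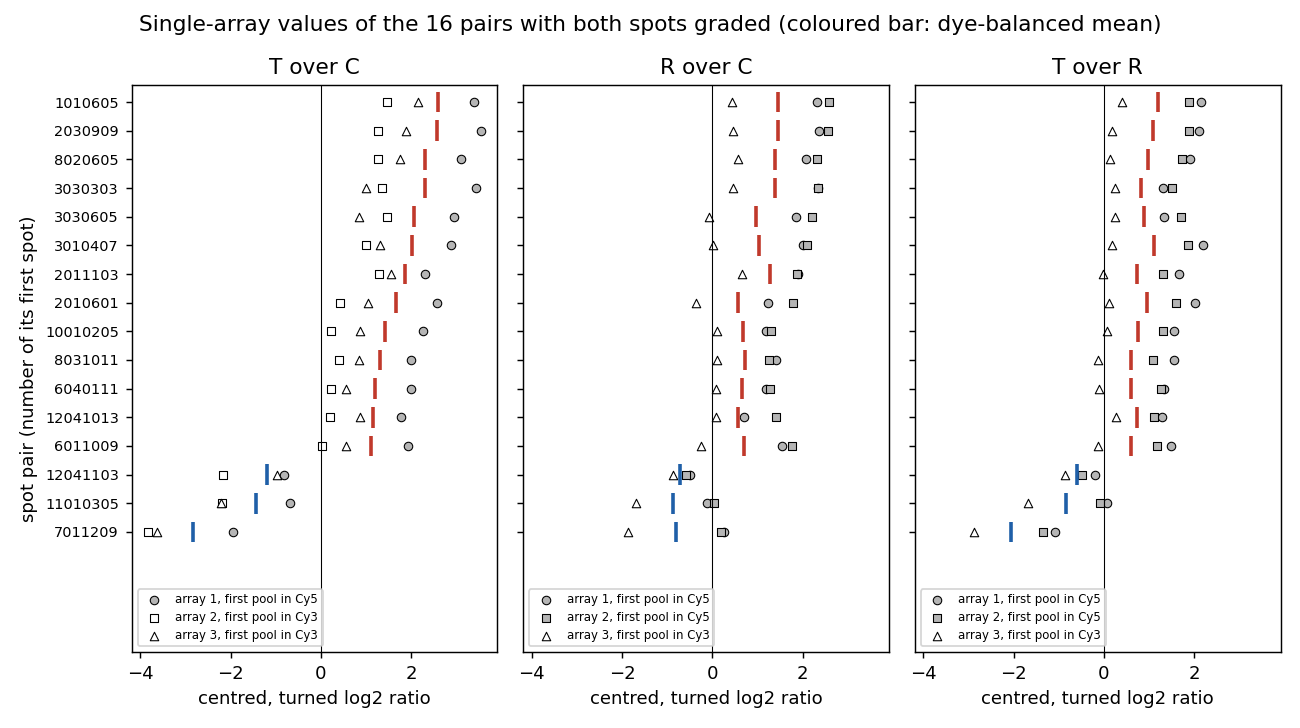
Each row is 1 of the 16 pairs with both spots graded, ordered by T/C. Each symbol is the pair's centred log2 ratio on 1 array, with the sign turned where the first-named pool was in Cy3. Grey symbols are arrays with that pool in Cy5, white symbols arrays with it in Cy3, and coloured bars are dye-balanced means. Grey symbols lie to the right of white ones in every panel at all 16 pairs, and the bars lie on the same side in the 3 panels of each row.

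The other 7 direction 1 pairs with both spots graded lay closer to the thresholds, at 2.15-fold to 3.63-fold in T/C. Pair 2011103 had the largest share of its difference in the step from C to R, with T/C values of 2.31, 1.28 and 1.55, R/C values of 1.90, 1.88 and 0.64, and T/R values of 1.67, 1.31 and -0.01. Its steps were 2.41-fold and 1.67-fold. Pair 2010601 had the smallest such share among the direction 1 pairs with both spots graded. Its T/C values were 2.58, 0.43 and 1.03, its R/C values 1.23, 1.79 and -0.36, and its T/R values 2.01, 1.60 and 0.11, with steps of 1.49-fold and 1.94-fold. The R/C mean of 2010601 fell below the threshold when the dye trend was removed, to 0.47 ± 0.26.

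Pair 10010205 had steps of 1.60-fold and 1.67-fold, and pair 12041013 of 1.48-fold and 1.66-fold. The T/C values of 12041013 were 1.78, 0.21 and 0.86, all on the same side. Its R/C mean without the dye trend was 0.45 ± 0.31, below the threshold. The other 3 direction 1 pairs (6011009, 6040111 and 8031011) had T/C differences of 2.15-fold, 2.28-fold and 2.49-fold and steps between 1.51-fold and 1.65-fold. In all 3 of them array 3 of T/R lay on the other side of 0, between -0.14 and -0.11.

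Direction 2 held the most changed pair of all. Pair 7011209 differed by 7.15-fold between T and C, with array values of -1.95, -3.82 and -3.63. Most of this lay in the ration step: T/R values were -1.09, -1.34 and -2.89, or 4.15-fold, whereas R/C values were 0.26, 0.20 and -1.86, or 1.76-fold. On centred values the R/C arrays thus did not lie on the same side. Without array 3, the only R/C array with R in Cy3, their mean was not dye-balanced. It was 0.23, on the other side from the value with all arrays, -0.82. Without the dye trend the 3 comparisons gave -2.89 ± 0.15, -0.92 ± 0.09 and -2.01 ± 0.02.

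Pair 11010305 had equal steps, 1.82-fold (R/C) and 1.80-fold (T/R). Its T/C values were -0.68, -2.19 and -2.21. The R/C values of -0.12, 0.04 and -1.69 and the T/R values of 0.06, -0.08 and -1.68 show a pattern of 1 strongly negative array in each step, the one of opposite dye order. Without the dye trend its steps were -0.98 ± 0.06 and -0.90 ± 0.13.

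Pair 12041103 had all 9 centred values on the same side: -0.82, -2.17 and -0.97 in T/C, -0.49, -0.59 and -0.88 in R/C, and -0.21, -0.50 and -0.86 in T/R. Its T/C difference was 2.29-fold. It also had the lowest dye effect of the 16 pairs, 0.25, where the dye effect of a spot is its mean over the 9 centred arrays before turning. Its T/C arrays spread the most of the 16 relative to their mean, at -1.39 ± 0.52 with the dye trend removed.

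The position of R between the other pools can be given as the share of R/C in the sum of the steps, 0% if R equalled C and 100% if it equalled T. Since each step had to reach 0.5, the rule bounds this share, most tightly for small T/C ratios. Over the 50 members it ran from 27.1% to 80.6% around a median of 53.1%, the quartiles being 46.6% and 57.4%. It lay between 40% and 60% at 37 members and at 12 of the 16 pairs. Among the 16 pairs with both spots graded, those farthest from the middle were 7011209 at 28.5% and 2010601 at 37.5% on the low side, then 2011103 at 63.3% and 3030303 at 62.8% on the high side. The SD of this share between the 2 spots of a pair, pooled over the 16 pairs, was 2.90 percentage points. The median was 51.0% when the dye trend was removed, with the same members.

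**Figure D3:**
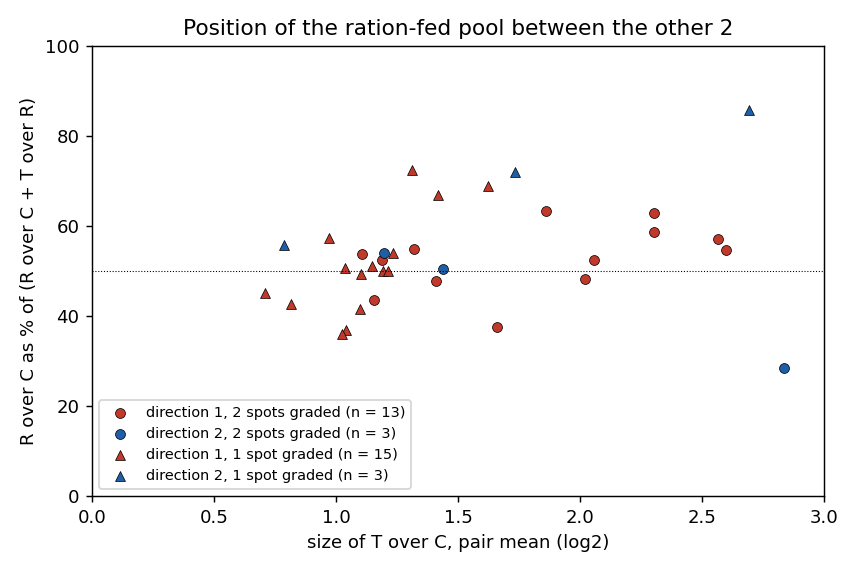
Each point is 1 of the 34 pairs that hold a graded spot, with the size of its mean T/C log2 ratio on the x axis and the share of R/C in the sum of both steps, in percent, on the y axis. Circles are pairs with 2 graded spots and triangles pairs with 1. Most points lie between 40% and 60%, and the direction 2 pairs with the largest T/C ratios lie at 28.5% and 85.7%.

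The 18 single members were mostly smaller, with a median T/C log2 size of 1.11 against 1.79 for the 32 members in graded pairs. Their partners had T/C values on the same side of 0.61 to 2.71 in size, with a median of 1.16. The partner missed the T/R threshold at 12 of the 18, the R/C threshold at 9 and the T/C threshold at 3. Some missed more than 1. The partners' median was 0.51 in R/C and 0.48 in T/R, close to the threshold of 0.5. From member to partner the value fell by a median of 0.10 in T/R and 0.08 in R/C, whereas in T/C the median difference was -0.01. Single members passed every threshold while their partners missed at least 1, mostly in T/R or R/C. The falls thus follow in part from the choice, and nothing is read from them. Under the rule applied to the mean of the spots, 25 pairs were graded, the 16 double pairs and 9 of the 18 others.

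Spot 10010304 was the largest of the single members, with ratios of -2.67 (T/C), -2.42 (R/C) and -0.58 (T/R). Its partner 10010303 gave -2.71, -2.46 and -0.23, so the pair mean put R at 85.7% of the way to T. Spot 10020412 was similar in kind, at -1.74, -1.15 and -0.50, and its partner missed by a T/R value of -0.47. In direction 1, spots 5030510 and 6040509 had T/C ratios of 1.44 and 1.59, and partners at 1.40 and 1.66 that fell short in T/R, at 0.50 (before rounding 0.498) and 0.46. Spot 7031201 was the member whose ratios added up least well: its R/C ratio, 1.21, was larger than its T/C ratio, 1.11, and R/C plus T/R exceeded T/C by 0.69.

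**Figure D4:**
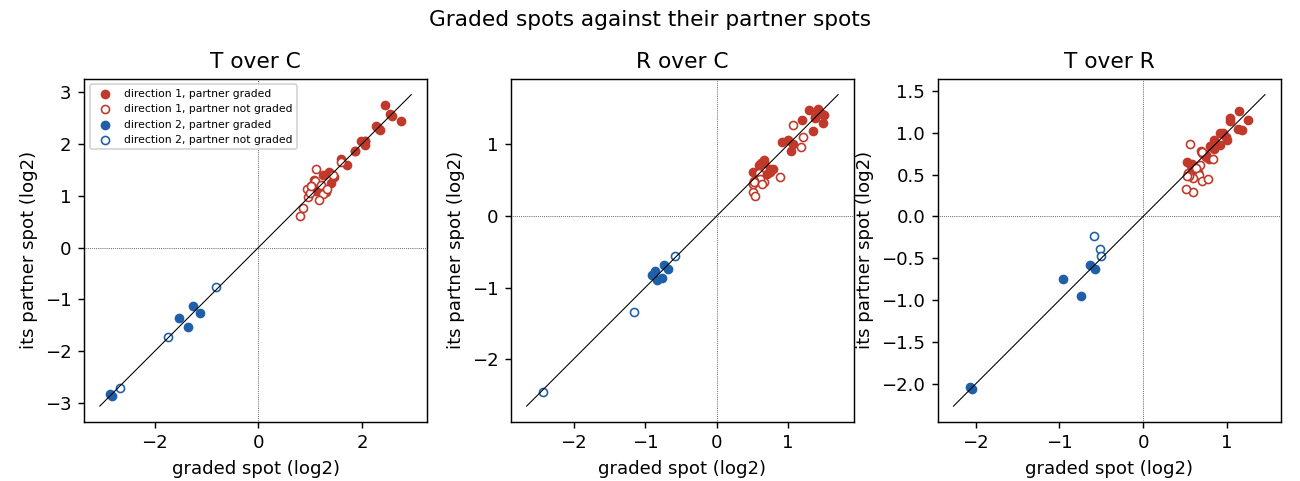
In each panel a point is 1 of the 50 graded spots, with its log2 ratio on the x axis and that of its partner spot on the y axis, and the solid line marks equal values. Filled points have a graded partner and open points do not. Points lie near the line in T/C, and the open points lie on average closer to 0 than the line in R/C and T/R. Open points are those whose partner missed a threshold, so this follows in part from the choice.

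Members just inside a threshold were not set apart from spots just outside it. In T/C, spots 12021109 and 2040405 entered with sizes of 0.81 and 0.82, while 6010602 and 3021304 stayed out at 0.764 and 0.761. In R/C, 8010712 and 8040313 entered at 0.507 and 0.511, while 12030413 and 4011311 stayed out at 0.496 and 0.494, the last being the partner of a member. In T/R, 10020412 and 7040810 entered at 0.502 and 0.514, while 5030509 and 5021005 stayed out at 0.498 and 0.494. Spots that missed the rule by a single threshold numbered 178 for R/C, 116 for T/R and 7 for T/C.

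On centred values, arrays of opposite dye order differed in sign at some members in each comparison. All 3 arrays gave a single sign at 47 members in T/C, 32 in R/C and 30 in T/R, and all 9 arrays did at 20 members. Over all spots a single sign was seen at 17.0%, 16.2% and 21.2%, and on all 9 arrays at 1.53%. With the dye trend removed the sign was the same at 50 of 50 members in each comparison and on all 9 arrays. Over all spots this held at 48.7% in T/C, 40.3% in R/C, 45.8% in T/R and 7.54% on all 9 arrays. The trend was fitted on the mean of the same 9 arrays, so what is left of a spot nearly cancels over the unturned arrays. Arrays of opposite dye order are thereby drawn to a single sign after turning. The members were also chosen by these arrays, so nothing is read from these counts. In direction 1, 27 of 41 members lay on their own side on array 3 of R/C and 27 of 41 on array 3 of T/R, the arrays with the first-named pool in Cy3, against 41 of 41 on each of the other arrays of those comparisons. In direction 2 it was the other way round: 9 of 9 lay on their own side on array 3, and 3 to 6 of 9 on arrays 1 and 2. The medians of the direction 1 members on the 3 arrays of R/C were 1.34, 1.68 and 0.17 on centred values, and 0.56, 0.82 and 0.75 with the dye trend removed.

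**Figure D5:**
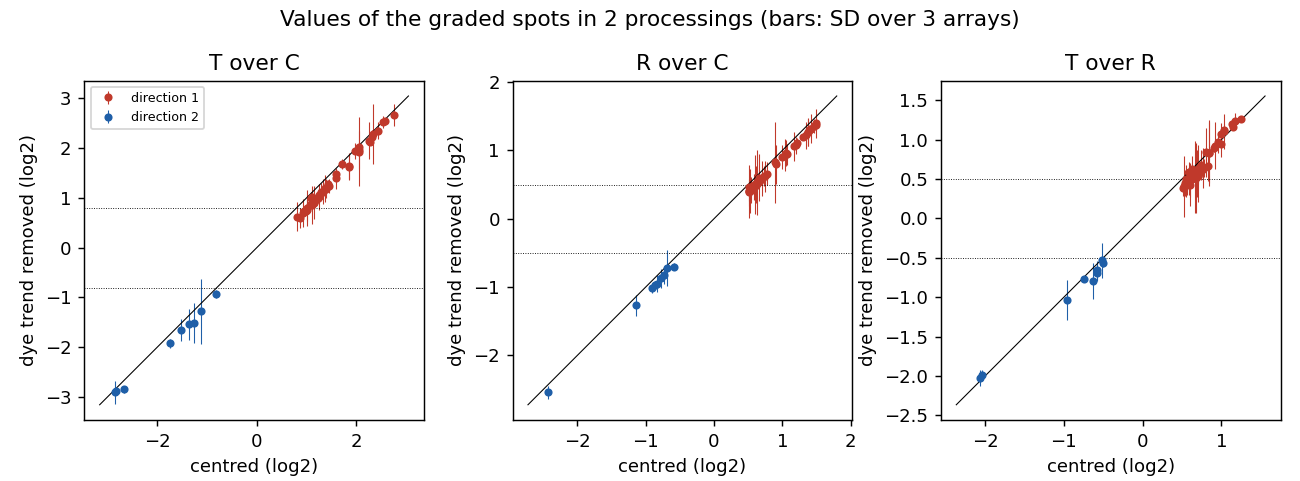
Each point is 1 of the 50 graded spots, with its centred, dye-balanced log2 ratio on the x axis and the same ratio after removal of the dye trend on the y axis, with bars for the SD over 3 arrays. Dotted lines are the thresholds and the solid line marks equal values. In T/C and R/C all direction 1 points lie below the line, nearer to 0, and all direction 2 points lie below it, farther from 0. In T/R most points do.

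The rule did not use the dye effect as such, although the dye effect is a mean of the same arrays. It was positive at 50 of 50 members, against 49.0% of all spots, and above the upper quartile of all spots at 40 members (80.0%), 33 of 41 in direction 1 and 7 of 9 in direction 2. The median dye effect was 0.738 for members and -0.026 for all spots. This was not particular to graded spots. Of the 456 other spots with a T/C ratio of at least 0.8 in size, 98.7% had a positive dye effect and 61.4% lay above the upper quartile, and the difference from the members was not tested. The dye effect moves with the ratios over all spots, at r = 0.354 (T/C), 0.239 (R/C) and 0.269 (T/R), as a description over spots that share the arrays. The part of the dye effect in the choice of members was not tested. The median difference between arrays of like dye order was 0.382, 0.242 and 0.253 for members in T/C, R/C and T/R, beside 0.325, 0.233 and 0.261 for all spots. On these centred values it was larger for members in T/C and R/C and smaller in T/R, and these differences were not tested.

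The loop lets the ratios be compared as sums. T/C minus both steps should be 0, and for members its median size was 0.139, with a highest value of 0.692, beside 0.155 for all spots. The median was 0.119 for the 32 members in graded pairs and 0.277 for the 18 single members. The rule did not leave this difference free. Where T/C was smaller than the step thresholds added together, a spot could enter only if its steps exceeded T/C in sum. The same 3 ratios entered the rule, so this is a description and not a check of the members. The part of the rule in the larger value of the single members was not tested. Members were spread over 25 of the 48 print blocks, and 8 blocks held 2 or more of the 34 pairs. The most in a block was 3, in block row 12 and block column 4, where pairs 12041013, 12041103 and 12041205 lay in spot rows 10, 11 and 12. Of these, 12041103 lay in direction 2 and the others in direction 1.

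Graded spots were 9.88% of the 506 spots with a T/C ratio of at least 0.8 in size. At another 145 the R/C step reached 0.5 on the same side but T/R did not, and at 226 the T/R step did and R/C did not. At 85 neither did. A step that did not could lie on the opposite side, with sizes of up to 0.75 in T/R at the 145 and up to 1.01 in R/C at the 226, where their medians were 0.23 and 0.25. With a larger T/C ratio the graded share was higher. Such a ratio also leaves both steps more room to reach 0.5, and the part of this in the rise was not tested. Of the 52 spots at 1.5 or more, 22 were graded (42.3%), 21 had the R/C step alone and 9 the T/R step alone. In that range the partner spot was graded too at 19 of the 22, while it was in the same class at 17 of 21 and 9 of 9 in the others. Over all spots past 0.8 these shares were 64.0% for graded spots, 73.1% for the R/C step alone and 80.5% for the T/R step alone. The differences were not tested.

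Across 6 settings of the processing, described with their values in the closing section, 21 of the 50 members met the rule in each. They were 19 spots of direction 1 and 2 of direction 2, and 7 pairs had both spots among them: 1010605, 2011103, 2030909, 3010407, 3030303, 3030605 and 8020605. The 2 in direction 2 were spot 7011210 of the most changed pair and spot 11010306. The partner of the first, 7011209, met the rule in 5 settings. The settings include the rule itself. Over all spots, only 3 direction 2 spots met the rule under the plain mean and 4 on uncentred arrays. So at most 3 of direction 2 could meet it in each setting. Removing the dye trend gave 24 direction 2 spots and equalised spreads 56. The split of 19 and 2 thus follows in part from the settings, and nothing is read from it.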

How the data were processed

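The deposited table holds 1 value per spot and array (8736 spots, 9 arrays, no missing value). Per the labels, salmonid cDNA arrays of a single slide batch were hybridised with Cy3- and Cy5-labelled cDNA. The sources used here do not state the scanner, quantification, background treatment or filters. The deposited values were read as log2 ratios because base 2 turned 995 of 78624 values into ratios of whole numbers with denominators up to 1000, within 1e-09 on the log scale, against 25 after a small shift (24 and 22 with base e, 84 and 84 with base 10). Array medians show that the authors did not centre them.

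The median of each array was subtracted from it and the sign turned where the first-named pool was in Cy3. Within a comparison, arrays of like dye order were averaged, then both orders. Array numbers follow accession order and only name hybridisations. For the dye trend, a lowess curve (fraction 0.3, 3 iterations, statsmodels 0.14.6) on the mean of the 9 arrays was subtracted from each array; this may also take out pool differences that run with that mean. The code that applies the rule was tested on simulated data with known graded spots, apart from the measured values. The simulated steps lay well past the thresholds, so that test says nothing about spots near them. Pair columns and print blocks (48 blocks of 13 rows and 14 columns) were read from the spot numbers. Graded pairs were named for the largest T/C (6 per direction) and for extreme or middle shares (3 each), and spots for lying next to a threshold; the remaining pairs and spots were named after their values were seen. The members, lists and alternatives were chosen with earlier results of these data known. Intensities were not used here, so dim spots were not separated, and the number of arrays limits the precision. With 1 pool per condition no test of a condition is possible.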

Additional observations from a re-analysis of the deposited data

How the results depend on the processing

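The count of 50 graded spots, 82.0% of them in direction 1 with 16 pairs graded at both spots, depended on how the dye was treated. Removing the dye trend gave 47 spots and 14 such pairs but 48.9% in direction 1, and centring by print block 52 spots, 16 pairs and 88.5%. Uncentred arrays gave 138 spots, 42 pairs and 97.1%, and equalised spreads 81 spots, 30 pairs and 30.9%. A plain mean of the 3 arrays gave 96 spots, 31 pairs and 96.9%. That mean is not dye-balanced, as 2 of the 3 arrays share a dye order, and the part of this in the count was not tested. Without centring, the median of all spots moved from -0.05 to 0.19 in T/C, from 0.00 to 0.10 in R/C and from -0.04 to 0.09 in T/R. Stricter thresholds (1.0 and 0.6) left 29 spots and looser ones (0.6 and 0.4) 146, a single sign on the 3 arrays of each comparison left 20, the rule on pair means 25 pairs, and ratios not turned by dye gave 1260.

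Leaving out 1 array at a time gave 28 spots (without T/C array 1) to 182 (without R/C array 3), and 145 without T/R array 3. The share in direction 1 ran from 64.3% to 98.4%, and the pairs from 10 to 73. The median share of R/C over the 50 members was 39.0% without T/R array 3 and 66.1% without R/C array 3, against 53.1%. Each of these extremes left out the only array of its dye order in a comparison, so the mean was not dye-balanced. Leaving out any other single array gave 47 to 63 spots, 13 to 22 pairs, 76.0% to 85.7% in direction 1 and shares of 50.7% to 53.9%. After removal of the dye trend, leaving an array out of the averages gave 41 to 53 spots and 13 to 18 pairs. The median share of R/C over the same 50 members was then 49.1% to 52.8%. Of the spots that met the rule, 43.4% to 58.7% lay in direction 1. These percentages were 48.9%, 50.0%, 50.0% (T/C arrays 1 to 3), 50.0%, 51.0%, 50.9% (T/R) and 58.7%, 43.4%, 46.3% (R/C). The trend had been fitted on all arrays beforehand, so an array left out still shaped the values of the others. These ranges are thus not like those on centred values, and their narrowness may be partly built in. The graded pairs named for the largest T/C or for their share gave 429 values, of which 1 changed direction. R/C of pair 7011209 went from -0.82 to 0.23 without R/C array 3 and was -0.83 without array 1. Array 3 is the only R/C array with R in Cy3, so the mean without it was not dye-balanced. The dye effect of this pair was 0.92, and its part in the change was not tested. A count of signs does not show how near to 0 a value came. Pair 11010305 kept its direction, but both its steps rested on array 3. Its other arrays gave -0.12 and 0.04 in R/C and 0.06 and -0.08 in T/R.

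The settings for partner spots, dye effect and like-order differences were chosen after seeing the data. Partners lay on the member's side at 98.0% (plain mean) to 100% in the 6 settings that kept all arrays and thresholds, the like-order difference of members was 0.286 and 0.200 without the dye trend, and their median dye effect was 0.738 and 0.696 by print block. No paired analysis was possible because a number shared between comparisons marks no shared fish, RNA sample or slide in the labels. A filter on dim spots was not run, as intensities were not used here.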
